A study of Homo sapiens with 6 samples.

Results

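DNA replication and its control by the E2F transcription factors were followed in 47 genes of the human cell line MDA-MB-231, which was established from a breast cancer and lacks estrogen and progesterone receptors. The genes were chosen by name: components of origin licensing, of the replicative helicase, of the clamp, polymerases and nucleotide supply, and 5 E2F genes with the cyclin E kinase genes. Each of the 47 had 1 row in the deposited table of 27451 gene rows, and all 47 were among the 12294 genes tested, those averaging 1 TPM or more over the 6 libraries. The groups were cells given H182 at 2 µM for 2 h (3 libraries) and cells given the vehicle DMSO (3 libraries). H182 is known here only by its code name, from a series on compounds made to inhibit STAT3, a transcription factor. TPM gives each gene's share of the transcripts of its library, scaled by transcript length, so levels of different genes can be set side by side, but the depth of each library is unknown. All libraries came from 1 cell line, and the labels do not say whether replicates were separate cultures, so a p-value here reflects only library-to-library spread, which may be technical.

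Cells prepare a round of replication in G1, when the origin recognition complex, CDC6 and CDT1 load the MCM2 to MCM7 ring onto DNA. At the start of S phase kinases turn that ring into an active helicase by adding CDC45 and the GINS complex, and polymerases then copy both strands around the sliding clamp PCNA. E2F1, E2F2 and E2F3 are known to activate most of these genes once kinases, among them CDK2 with cyclin E, have inactivated the pocket proteins. E2F7 and E2F8 are atypical E2F proteins that repress many of the same genes later in S phase. Because the genes follow the cell cycle, a bulk library cannot tell fewer cells in S phase from less RNA per cell.

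Letters known from E2F sites stood in the promoter windows of many of these genes, but not of all. RefSeq promoter windows on GRCh38.p14, of 250 bases before and 50 after a gene's start, were matched for 41 of the 47 genes by symbol. The 6 without a window were MCM4, MCM5, GINS4, CCNE2, CDK2 and E2F8. The shares below thus leave out E2F8, which had the deepest fall after H182, and MCM4, which also fell. The letters TTTCGCGC, TTTGGCGC, TTTCCCGC or TTTGCCGC, on either strand, stood in a window of 24 of the 41 (58.5%) and of 3.99% of all 27305 genes in that table. Per window of 300 bases the shares were 47.2% of 53 and 3.31% of 35116. A gene was counted once however many spellings matched, and matches on opposite strands or of different motifs can share bases. The E2F letters were in 10 of 18 matched genes that fell after H182 (55.6%) and in 14 of 23 that did not pass the test (60.9%). The box CCAAT, read on either strand and bound by NF-Y, stood in 27 of the 41 genes (65.9%, against 39.7% of all genes). It was in 14 of 18 genes that fell (77.8%) and in 13 of 23 that did not pass (56.5%). The CHR letters TTTGAA or TTCGAA, an element known from mitotic genes, stood in 3 of the 41 (7.32%, against 19.5%). They were in 1 of the 18 and 2 of the 23. Differences between genes that fell and the others were not tested for any of these letters. A match is a description of these letters and no measure of binding.

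Shown are the windows of the 4 genes with the largest falls among those with a window, and of E2F1, whose level did not change detectably, so that both kinds can be compared. They lie at chr1:23531184-23531483 (E2F2, minus strand), chr20:25407423-25407722 (GINS1, plus), chr4:39366313-39366612 (RFC1, minus), chr19:4909251-4909550 (UHRF1, plus, the first of 3 windows) and chr20:33686336-33686635 (E2F1, minus). Each is printed from 5′ to 3′ on the gene's own strand, and capitals mark the E2F letters.
E2F2: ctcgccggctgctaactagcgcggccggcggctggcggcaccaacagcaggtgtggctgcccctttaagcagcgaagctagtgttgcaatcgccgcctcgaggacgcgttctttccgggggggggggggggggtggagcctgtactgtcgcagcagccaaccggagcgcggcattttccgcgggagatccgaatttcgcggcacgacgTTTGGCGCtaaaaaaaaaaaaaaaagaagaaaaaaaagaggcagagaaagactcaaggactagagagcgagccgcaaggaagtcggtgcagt
GINS1: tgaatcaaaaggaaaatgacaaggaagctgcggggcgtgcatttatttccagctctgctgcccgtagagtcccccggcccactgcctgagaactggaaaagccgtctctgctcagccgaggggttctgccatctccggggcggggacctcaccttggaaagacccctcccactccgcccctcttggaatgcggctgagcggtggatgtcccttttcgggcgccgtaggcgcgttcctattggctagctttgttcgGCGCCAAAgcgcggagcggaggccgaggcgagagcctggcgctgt
RFC1: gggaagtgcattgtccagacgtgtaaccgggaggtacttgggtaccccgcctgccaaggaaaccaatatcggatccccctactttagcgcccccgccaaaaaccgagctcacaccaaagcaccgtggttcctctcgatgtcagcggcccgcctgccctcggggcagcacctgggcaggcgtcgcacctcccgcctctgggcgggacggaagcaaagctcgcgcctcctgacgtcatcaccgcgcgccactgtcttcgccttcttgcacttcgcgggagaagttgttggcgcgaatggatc
UHRF1: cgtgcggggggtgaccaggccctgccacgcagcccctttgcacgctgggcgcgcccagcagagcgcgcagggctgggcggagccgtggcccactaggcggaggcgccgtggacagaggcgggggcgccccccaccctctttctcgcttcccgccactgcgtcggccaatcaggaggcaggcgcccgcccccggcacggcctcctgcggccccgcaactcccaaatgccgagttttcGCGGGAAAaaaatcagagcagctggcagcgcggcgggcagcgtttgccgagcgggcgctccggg
E2F1: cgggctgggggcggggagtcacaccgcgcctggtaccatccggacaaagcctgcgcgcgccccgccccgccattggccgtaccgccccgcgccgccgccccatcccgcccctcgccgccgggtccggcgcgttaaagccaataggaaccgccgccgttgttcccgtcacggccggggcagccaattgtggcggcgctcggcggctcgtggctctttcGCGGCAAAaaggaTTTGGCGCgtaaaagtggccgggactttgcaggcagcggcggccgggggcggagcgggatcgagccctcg
The E2F2 window has 1 match, which begins 42 bases before the start. GINS1 has 1 match, which begins 5 bases after the start. UHRF1 has 1 match 14 bases before the start, RFC1 has none, and E2F1 has 2, at 33 and 20 bases before the start.

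After 2 h of H182 some of the replication genes were called lower in their share of the library, by modest amounts, and none was called higher. Of 47 genes, 20 fell, none rose and 27 did not pass (limma, Benjamini-Hochberg adjusted p under 0.05 over all tested genes), so 42.6% fell, against 18.7% of all tested genes called lower and 5.30% called higher. None of the 47 had an unadjusted p under 0.05 and a positive change. No change reached 2-fold. The falls ran between 52.6% of the DMSO level for E2F8 and 90.2% for MCM7, and only E2F8, E2F2 and GINS1 fell by at least 0.5 on the log2 scale. The summed level of the 47 genes was 4840 ± 137 TPM in H182 and 5481 ± 102 TPM in DMSO (SD, n = 3 each), or 88.3% of the DMSO level (exact two-sided permutation p = 0.1, the smallest that 3 against 3 libraries can give).

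Part of that fall was shared by most genes in the table. The median log2 change was -0.15 over the 47 genes and -0.09 over all tested genes, of which 71.2% had a negative change. The heat shock genes HSPA1A, HSPA1B and DNAJB1 held 2.59% to 2.76% of all TPM in the H182 libraries and 0.0482% to 0.0520% in the DMSO libraries, and TPM sums to a fixed total. With these 3 genes left out of the totals, the median of all tested genes moved by 0.0356 to -0.0586. The cause of the shared fall was not tested. Median-of-ratios scaling, which sets the typical gene to no change, moved the median of all genes by 0.0962 to 0.00 and that of the 47 genes to -0.05. With it 8 of the 47 genes fell and none rose (17%, against 6.78% of all genes called lower and 7.88% called higher), and with quantile normalization 13 fell and none rose (27.7%, against 10.3% lower). The 8 were E2F8, E2F2, GINS1, RFC1, UHRF1, MCM4, FEN1 and MCM3, all of which had also fallen in TPM and fell with quantile normalization. Leaving out the 3 chaperone genes from each library's total kept 15 of the 20 calls. Over all 12294 tested genes, 1496 were then called lower, against 2304 in TPM as deposited. Without DMSO replicate 2, 12 of the 47 genes fell in TPM, the lowest count with any 1 library left out. Of the 12287 genes tested without that library, 1407 were called lower, so calls were lost across the table as well. The calls of GMNN, MCM10, RFC5 and RRM1, besides those of the 8, held with each library left out. Leaving out 1 library ended the call of ORC1 (H182 replicate 1, DMSO replicate 2 or 3), MCM7 (H182 replicate 2, DMSO replicate 1 or 2), TYMS (DMSO replicate 2), PRIM1 (H182 replicate 2 or 3, DMSO replicate 1 or 2), GINS3 (replicate 1 or 2 of either group) and POLE (any library but H182 replicate 3).

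**Figure D1:**
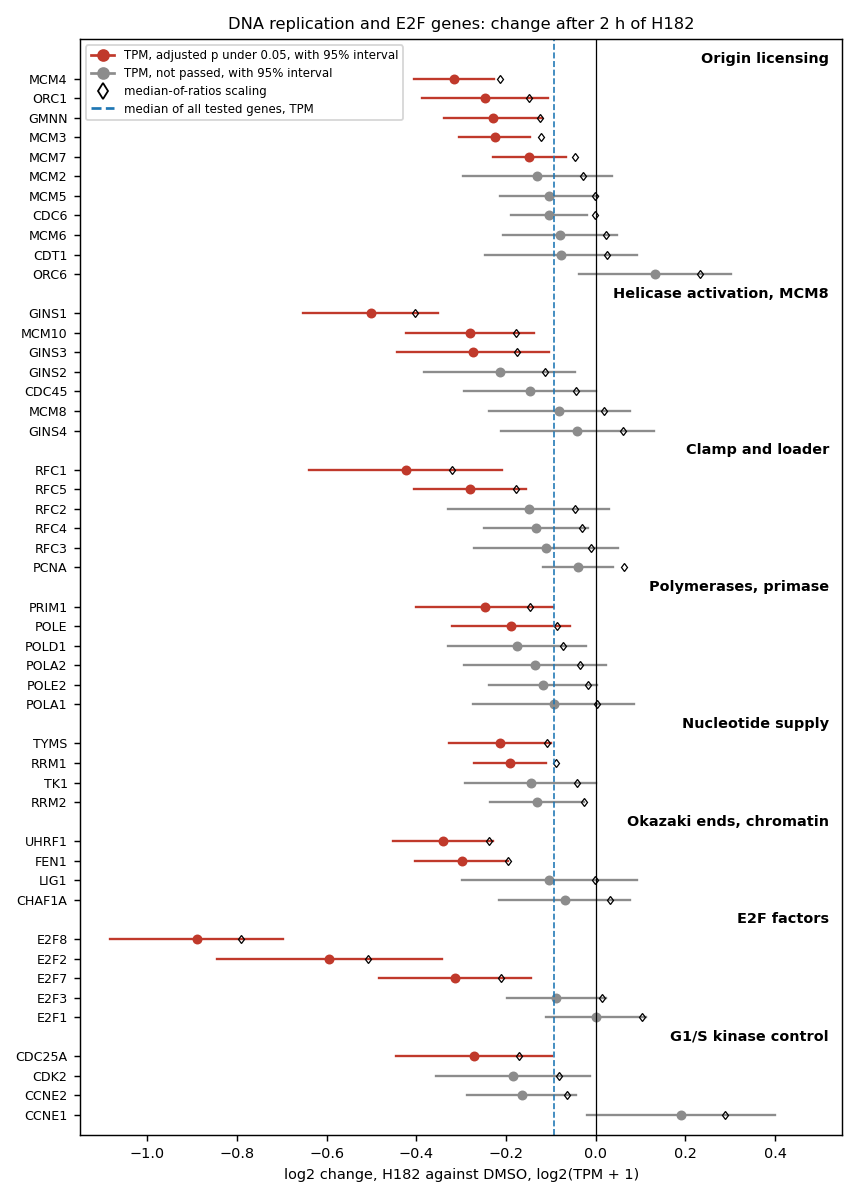
The log2 change of each of the 47 genes is plotted by role (x axis, log2(TPM + 1), H182 against DMSO) with its 95% interval from limma. Red points passed the adjusted threshold and grey points did not. Open diamonds give the change with median-of-ratios scaling, and the dashed line is the median of all tested genes at -0.09. E2F8, E2F2 and GINS1 lie farthest to the left, and the points of E2F1, ORC6 and CCNE1 lie at or right of 0.

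In 29 of 47 genes (61.7%) every H182 library was below every DMSO library, against 32.7% of all tested genes, and in none was every H182 library above, against 8.67%. The 29 include all 20 genes that fell and 9 that did not pass: CDC6, GINS2, PCNA, RFC4, POLD1, POLE2, RRM2, E2F3 and CCNE2. When only genes averaging 5 TPM or more were tested, a level that all 47 reached, 21 of the 47 fell, against 23.8% of all such genes called lower and 5.96% called higher. The shares by role and by list below are set against the 18.7% of all tested genes, which include genes under 5 TPM. Shares of a few genes near 23.8% are thus close to that of genes at a like level.

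**Figure D2:**
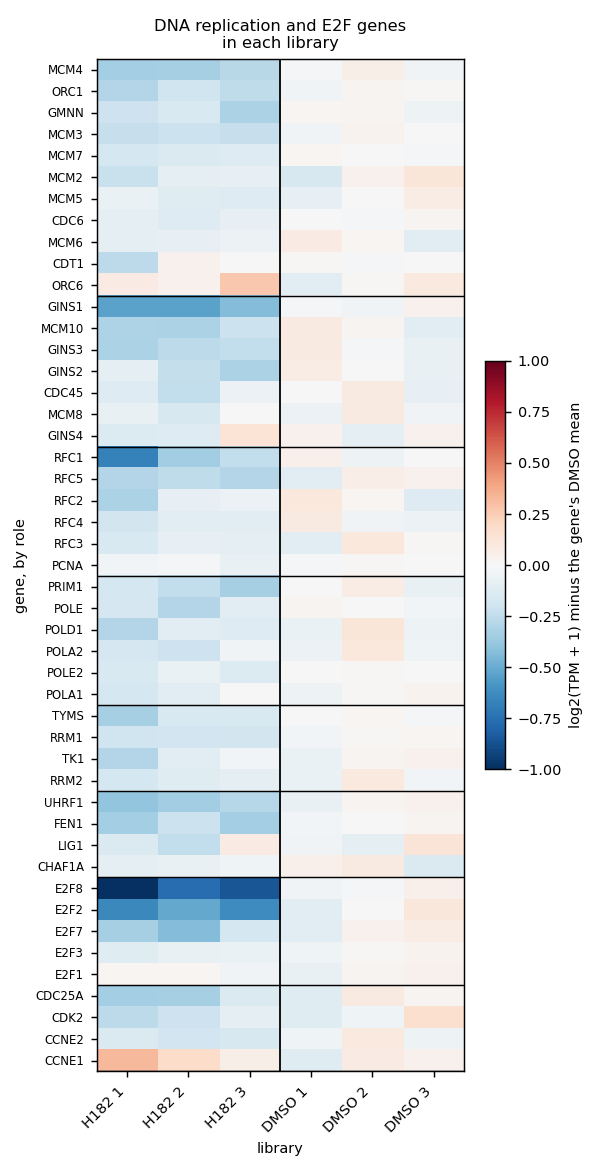
Each row is one of the 47 genes, ordered by role (black lines) and within a role by its change, and each column is a library, H182 left of DMSO. Colour gives log2(TPM + 1) minus the gene's mean over the 3 DMSO libraries, from -1 (blue) to 1 (red), with values beyond these drawn at the end colours. The darkest cells are the 3 of E2F8 in H182, followed by RFC1 in H182 replicate 1, and CCNE1 and ORC6 are pale red in the H182 columns.

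The E2F factors held both the deepest fall of the 47 genes and one without a detectable difference, and 3 of 5 fell (60%, against 18.7% of all tested genes). Levels are given in the order of replicates 1, 2 and 3. E2F8, an atypical repressor E2F (chromosome 11, 19224063 to 19241620, GRCh38, minus strand, up to 13 exons in a transcript), had 13.88, 17.26 and 16.05 TPM in H182, against 29.15, 29.53 and 31.07 TPM in DMSO. Every H182 library lay well below every DMSO library. Its log2 change was -0.89 (95% interval -1.08 to -0.70, limma adjusted p = 8.7e-05), and -0.79 after median-of-ratios scaling (adjusted p = 0.000214). E2F2, an activator E2F and the lowest of the 47 genes (chromosome 1, 23506430 to 23531220, minus strand, up to 7 exons), had 3.92, 4.39 and 3.95 TPM in H182, against 6.11, 6.68 and 7.28 TPM in DMSO. It fell to 61.1% of the DMSO level (log2 change -0.59, limma adjusted p = 0.00479). E2F7, the other atypical repressor, had 56.70, 52.60 and 63.01 TPM in H182, against 65.92, 73.58 and 75.27 TPM in DMSO. The gap between its groups was narrow, and its fall (log2 change -0.31, limma adjusted p = 0.0158) was no longer called after median-of-ratios scaling (-0.21, adjusted p = 0.0796), nor without H182 replicate 2 or DMSO replicate 2 or 3.

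E2F1 and E2F3, activators like E2F2 but at higher levels, did not pass. E2F1 had 78.03, 78.11 and 75.19 TPM in H182, against 73.17, 78.76 and 79.39 TPM in DMSO, a mean of 77.1 TPM in both groups. The log2 change was 0.00 with a 95% interval of -0.11 to 0.11, and 0.10 after median-of-ratios scaling. E2F3 averaged 55.7 ± 1.2 TPM in H182 and 59.2 ± 1.73 TPM in DMSO (SD, n = 3 each; log2 change -0.09, interval -0.20 to 0.02, and 0.01 after median-of-ratios scaling). A ratio of 2 genes within a library does not depend on the scaling. The ratio of E2F8 to E2F1 was 0.178, 0.221 and 0.213 in H182, against 0.398, 0.375 and 0.391 in DMSO, and that of E2F2 to E2F1 was 0.0502, 0.0562 and 0.0525 in H182, against 0.0835, 0.0848 and 0.0917 in DMSO (exact two-sided permutation p = 0.1 for each, the smallest possible). These ratios were chosen after their values were seen, so their p is a description and no test.

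**Figure D3:**
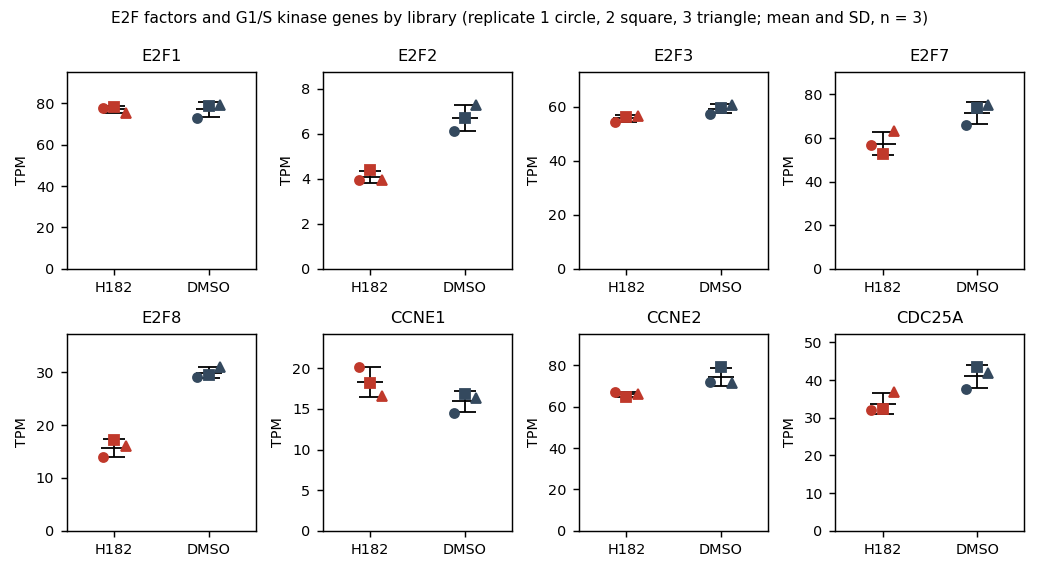
TPM of the 5 E2F genes and of CCNE1, CCNE2 and CDC25A is plotted for each library (y axis from 0, its range set for each gene), H182 left of DMSO. Symbols mark the replicate, and black lines give the mean and SD of 3 libraries. The H182 and DMSO points of E2F8 and E2F2 are far apart, and those of E2F1 and CCNE1 overlap.

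Of 4 genes of the G1/S kinase 1 fell (25%, near the 18.7% of all tested genes). This gene was CDC25A, the phosphatase that removes inhibitory phosphates from CDK2. It had 32.10, 32.28 and 36.87 TPM in H182, against 37.55, 43.54 and 41.80 TPM in DMSO (log2 change -0.27, limma adjusted p = 0.0317), with a narrow gap between the groups. The call was lost after median-of-ratios scaling (-0.17, adjusted p = 0.144) and when H182 replicate 1 or 2 or DMSO replicate 2 or 3 was left out. The 2 cyclin E genes, whose products activate CDK2, had changes of opposite sign, and neither passed. CCNE1 averaged 18.3 ± 1.81 TPM in H182 and 15.9 ± 1.24 TPM in DMSO (log2 change 0.19, 95% interval -0.02 to 0.40), and CCNE2 averaged 66.1 ± 1.17 TPM in H182 and 74.3 ± 4.4 TPM in DMSO (-0.17, interval -0.29 to -0.04, limma adjusted p = 0.0518). CDK2 itself averaged 76.6 ± 4.84 TPM in H182 and 87.4 ± 9.10 TPM in DMSO (SD, n = 3 each), with overlapping groups and a log2 change of -0.19.

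In the licensing group, which loads the helicase ring in G1, 5 of 11 genes fell and 6 did not pass (45.5% fell, against 18.7% of all tested genes), and with median-of-ratios scaling 2 of 11 fell (18.2%, against 6.78%). MCM4 (chromosome 8, 47960185 to 47978160, plus strand) and MCM3 (chromosome 6, 52264009 to 52284881, minus strand), subunits of the ring, fell with every scaling tried, MCM3 narrowly after median-of-ratios scaling (adjusted p = 0.0485). MCM4 had 239.95, 242.07 and 251.03 TPM in H182, against 300.89, 316.70 and 296.46 TPM in DMSO (log2 change -0.32, limma adjusted p = 0.000514). MCM3 had 244.83, 246.43 and 244.21 TPM in H182, against 279.59, 293.95 and 287.27 TPM in DMSO (log2 change -0.23, limma adjusted p = 0.00188). In both genes the groups were clearly apart.

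MCM7, also of the ring, had 186.68, 191.52 and 193.30 TPM in H182, against 214.46, 211.02 and 208.28 TPM in DMSO. It had the smallest fall of the 20 genes (log2 change -0.15, limma adjusted p = 0.0171), one that was lost with median-of-ratios scaling (-0.05). The other subunits MCM2, MCM5 and MCM6 had changes of -0.13, -0.11 and -0.08 and overlapping groups. The summed level of the 6 ring genes MCM2 to MCM7 was 960.0 ± 11.1 TPM in H182 and 1105 ± 22.5 TPM in DMSO, or 86.9% of the DMSO level. Differences between subunits were not tested.

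ORC1, the large subunit of the origin recognition complex, had 22.53, 24.15 and 23.17 TPM in H182, against 27.08, 28.36 and 28.05 TPM in DMSO (log2 change -0.25, limma adjusted p = 0.0194). GMNN encodes geminin, which binds CDT1 and blocks a second round of licensing, and had 231.66, 240.28 and 214.35 TPM in H182, against 272.26, 273.12 and 258.48 TPM in DMSO (log2 change -0.23, limma adjusted p = 0.00900). The groups did not overlap in either gene, and both calls were lost with median-of-ratios scaling. CDT1 itself averaged 68.8 ± 7.66 TPM in H182 and 72.3 ± 0.802 TPM in DMSO, with H182 replicate 1 at 60.01 TPM and the other 2 H182 libraries within the DMSO range or above it. The ATPase CDC6, which works with CDT1, had a change of -0.10, and ORC6, the smallest subunit of the origin complex, one of 0.13 with overlapping groups.

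Of the 7 genes set apart as helicase activation, 3 fell (42.9%, against 18.7% of all tested genes), and 1 fell with median-of-ratios scaling (14.3%, against 6.78%). GINS1, a subunit of the 4-membered GINS complex (chromosome 20, 25407727 to 25452628, plus strand), had 18.03, 17.96 and 19.39 TPM in H182, against 26.37, 25.85 and 27.44 TPM in DMSO. Its groups were far apart, with a log2 change of -0.50 (95% interval -0.65 to -0.35, limma adjusted p = 0.000773) and of -0.40 after median-of-ratios scaling (adjusted p = 0.00247). GINS3 had 14.98, 15.61 and 15.79 TPM in H182, against 20.18, 18.72 and 17.86 TPM in DMSO (log2 change -0.27, limma adjusted p = 0.0281), a fall lost with median-of-ratios scaling. The subunit genes GINS2 and GINS4 did not pass, with changes of -0.21 and -0.04. MCM10, which helps the assembled helicase to fire, had 50.14, 49.97 and 53.84 TPM in H182, against 66.52, 63.54 and 57.73 TPM in DMSO (log2 change -0.28, limma adjusted p = 0.0123). Its DMSO libraries were spread more widely than its H182 libraries, and the call was lost after median-of-ratios scaling (adjusted p = 0.0863). CDC45 (-0.15) and MCM8 (-0.08), a helicase of recombination repair rather than of licensing, did not pass.

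Of 6 genes of the sliding clamp and its loader 2 fell (33.3%, against 18.7% of all tested genes), and 1 fell with median-of-ratios scaling (16.7%, against 6.78%). PCNA, the clamp, averaged 259 ± 4.98 TPM in H182 and 266 ± 2.77 TPM in DMSO, and its log2 change of -0.04 (95% interval -0.12 to 0.04, limma adjusted p = 0.445) was above the median of all genes and turned to 0.06 after median-of-ratios scaling. RFC1, the large subunit of the clamp loader (chromosome 4, 39287456 to 39366375, minus strand, up to 25 exons), had 77.68, 97.69 and 105.37 TPM in H182, against 129.76, 120.41 and 124.73 TPM in DMSO. H182 replicate 1 was lower than the other 2, and the groups still did not overlap (log2 change -0.42, limma adjusted p = 0.0118). The call held with each library left out and was lost when low genes were kept in the test (adjusted p = 0.0506), and it was narrow after median-of-ratios scaling (adjusted p = 0.0455). RFC5, a small loader subunit, had 75.29, 77.60 and 75.41 TPM in H182, against 85.70, 97.26 and 95.26 TPM in DMSO (log2 change -0.28, limma adjusted p = 0.00641; -0.18, adjusted p = 0.0580 with median-of-ratios scaling). The other small subunits RFC2, RFC3 and RFC4 had changes of -0.15, -0.11 and -0.13, and none passed.

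Of 6 polymerase and primase genes 2 fell (33.3%, against 18.7% of all tested genes), and neither fell with median-of-ratios scaling, where 6.78% of all genes did. PRIM1, the catalytic subunit of primase, had 30.91, 29.38 and 27.63 TPM in H182, against 35.00, 36.89 and 33.08 TPM in DMSO (log2 change -0.25, limma adjusted p = 0.0273). POLE, the catalytic subunit of the leading-strand polymerase, had 50.31, 46.07 and 52.18 TPM in H182, against 57.57, 56.47 and 55.52 TPM in DMSO (log2 change -0.19, limma adjusted p = 0.0428). The POLE groups lay close together, and its call was lost in 11 of the 14 alternative settings. POLD1, of the lagging-strand polymerase, POLE2, POLA1 and POLA2 had changes between -0.18 and -0.09.

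The 4 genes of deoxynucleotide supply included the most abundant member, RRM2, and 2 of them fell (50%, against 18.7% of all tested genes). With median-of-ratios scaling none fell, and with quantile normalization RRM1, TYMS and RRM2 fell (75%, against 10.3%). RRM1, the large subunit of ribonucleotide reductase, had 181.98, 183.02 and 184.33 TPM in H182, against 205.66, 210.57 and 211.54 TPM in DMSO (log2 change -0.19, limma adjusted p = 0.00452). TYMS, which makes thymidylate, had 362.19, 411.63 and 410.90 TPM in H182, against 454.77, 463.22 and 453.22 TPM in DMSO (log2 change -0.21, limma adjusted p = 0.0149). RRM1 libraries were tight within each group, while H182 replicate 1 was low for TYMS, and both calls were lost with median-of-ratios scaling. RRM2, the small and cell-cycle regulated subunit, averaged 584 ± 16.6 TPM in H182 and 640.2 ± 39.1 TPM in DMSO (log2 change -0.13, limma adjusted p = 0.0704; -0.18, adjusted p = 0.0225 with quantile normalization), and the thymidine kinase TK1 had a change of -0.15 with overlapping groups.

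Of the genes that finish the new strand and restore its chromatin, 2 of 4 fell (50%, against 18.7% of all tested genes), and both also fell with median-of-ratios scaling (50%, against 6.78%). FEN1, the nuclease that trims Okazaki fragments (chromosome 11, 61792637 to 61797244, plus strand, up to 2 exons), had 141.08, 154.25 and 141.72 TPM in H182, against 175.60, 179.40 and 182.92 TPM in DMSO (log2 change -0.30, limma adjusted p = 0.00171). UHRF1, which brings maintenance DNA methylation to the new strand (chromosome 19, 4903080 to 4962154, plus strand, up to 17 exons), had 101.53, 105.14 and 109.83 TPM in H182, against 127.02, 136.57 and 137.85 TPM in DMSO (log2 change -0.34, limma adjusted p = 0.00127). The groups of both genes were well apart. LIG1, the ligase that seals the fragments, and CHAF1A, of the histone chaperone CAF-1, had changes of -0.10 and -0.07 with overlapping groups.

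Level, length and neighbours were described for the 47 genes. Mean levels ran from 5.39 TPM for E2F2 to 612 TPM for RRM2. Across the 47 genes the rank correlation of the log2 change was 0.0286 with mean level and -0.176 with the length of the gene on the genome (Spearman, a description across genes, which are not replicates and share their libraries). The median gene length was 28.02 kb among the genes that fell and 23.0 kb among the others. In GENCODE 29, 11 of the 47 overlap another gene of at least 1 TPM on the opposite strand, 5 of them among the genes that fell, such as TYMS with ENOSF1 (22.3 TPM in H182, 22.9 TPM in DMSO). On the same strand, FEN1 shares 4265 bases with the annotated span of FADS2 (82.4 TPM in H182, 98.9 TPM in DMSO) and PRIM1 shares 33 bases with that of NACA (1093 TPM in H182, 1144 TPM in DMSO). The library kit kept strand, per the labels, but its use in the counting was not given in the sources used here, so shared reads of these genes are uncertain.

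Other genes of the same processes were counted from lists that do not hold the 47. Of 36 other replisome and origin genes 11 fell, none rose and 25 did not pass (30.6%, against 18.7% of all tested genes), and with median-of-ratios scaling 6 fell and 1 rose (16.7% fell, against 6.78% of all genes called lower and 7.88% called higher). DBF4, the activating subunit of the kinase that fires origins, averaged 37.7 ± 3.32 TPM in H182 and 58.0 ± 5.91 TPM in DMSO (SD, n = 3 each; log2 change -0.61, limma adjusted p = 0.00121). RPA1, which coats single-stranded DNA, changed by -0.24, the polymerase epsilon subunit gene POLE3 by -0.27 and MCMBP, which binds MCM proteins, by -0.21. The call of MCMBP was lost after median-of-ratios scaling (-0.11, limma adjusted p = 0.0767). The list median was -0.15, equal at this precision to that of the 47 genes.

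Of 25 other E2F, pocket protein, MuvB and G1/S control genes 11 fell and none rose (44.0% fell, against 18.7% of all tested genes), and with median-of-ratios scaling 6 fell and none rose (24.0%, against 6.78%). WEE1, the kinase that holds CDK1 and CDK2 inactive, averaged 33.1 ± 1.82 TPM in H182 and 57.6 ± 6.74 TPM in DMSO (log2 change -0.78, limma adjusted p = 0.000218). CCNA2, the cyclin A gene of S and G2 phases, changed by -0.51, FOXM1, a transcription factor of G2 genes, by -0.29, and RBBP4, a histone binding subunit of MuvB and other complexes, by -0.30. LIN37, a MuvB subunit, had the highest change of this list at 0.59, and it did not pass (limma adjusted p = 0.0881, 11.1 ± 2.47 TPM in H182 and 7.18 ± 2.57 TPM in DMSO).

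Of 28 other genes of nucleotide supply and chromatin assembly 11 fell and 1 rose (39.3% fell, against 18.7% of all tested genes called lower and 5.30% higher). With median-of-ratios scaling 3 fell and 2 rose, so 10.7% fell, near the 6.78% of all genes called lower, where 7.88% were called higher. CDCA7, a chromatin factor that works with the remodeller HELLS, averaged 19.3 ± 0.971 TPM in H182 and 26.0 ± 0.528 TPM in DMSO (log2 change -0.41, limma adjusted p = 0.00244). The histone chaperone gene ASF1B changed by -0.25, the deubiquitinase gene USP1, which acts on PCNA and FANCD2, by -0.25, and DUT, which removes dUTP, by -0.19. The call of DUT was lost after median-of-ratios scaling (-0.09, limma adjusted p = 0.151). The gene that rose was SLBP, which binds the stem-loop of histone mRNA, at 252 ± 4.94 TPM in H182 and 228 ± 9.29 TPM in DMSO (log2 change 0.14, limma adjusted p = 0.0318; 0.25 with median-of-ratios scaling). With 1 library left out, this list had 1 rise without DMSO replicate 1 and none otherwise.

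Mitotic genes, the program that follows replication, are given for scale. All 22 of a list of mitotic genes fell in TPM (100%, against 18.7% of all tested genes). With median-of-ratios scaling 19 fell (86.4%, against 6.78%). This list, like the others, was chosen with earlier results of these data known. Its median log2 change in TPM was -0.36, against -0.15 for the 47 replication and E2F genes. KIF23, a mitotic kinesin, changed by -0.60, MKI67, the Ki-67 proliferation marker, by -0.61, TOP2A, which untangles sister chromosomes, by -0.44 and CCNB1, cyclin B1, by -0.44. Among the 47 genes only E2F8 had a larger fall than KIF23 and MKI67 on the log2(TPM + 1) scale, which understates changes of low genes. As a percentage of the DMSO level in TPM, E2F2 (61.1%) also lay below KIF23 (65.5%) and MKI67 (65.3%). The difference between the lists was not tested.

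**Figure D4:**
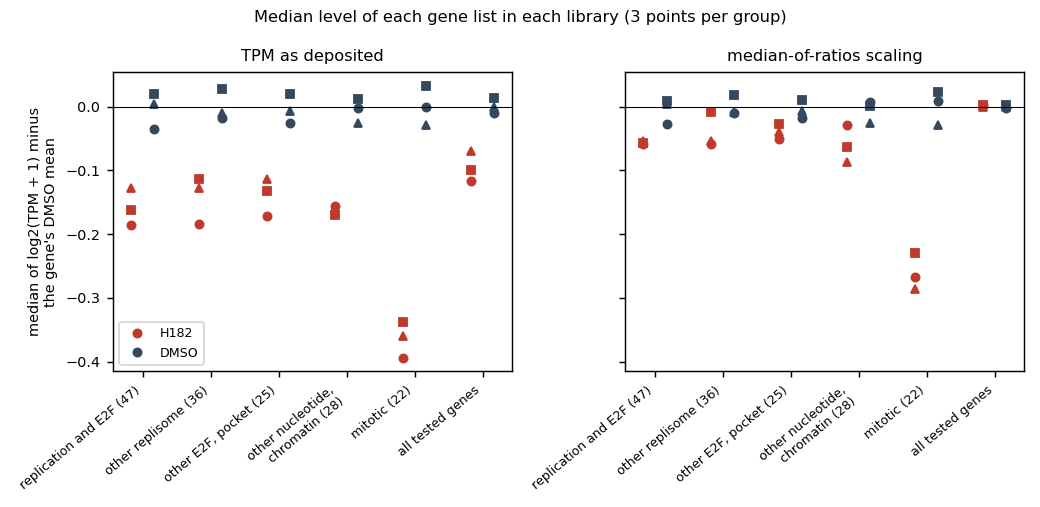
Each point is the median over a list of log2(TPM + 1) minus the gene's DMSO mean in 1 library, H182 left of DMSO in each pair, with TPM as deposited on the left and median-of-ratios scaling on the right. In TPM the H182 medians of the 47 genes lie between -0.19 and -0.13 and those of all tested genes between -0.12 and -0.07. With median-of-ratios scaling the H182 medians of the 47 genes lie between -0.06 and -0.05, and the mitotic list stays lowest.

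Marker levels were set beside those expected of the labelled line, which such lists cannot identify by themselves. Between 12230 and 12353 gene rows reached 1 TPM per library, and libraries correlated across tested genes at r = 0.9928 to 0.9942 within a group and 0.9787 to 0.9806 between groups. The 7 markers expected in this mesenchymal line summed to 5925 to 6301 TPM in H182 and 7195 to 7368 TPM in DMSO, led by VIM. Of 7 luminal and basal markers 2 had a mean of at least 1 TPM (GATA3 and ERBB3), and ESR1 and PGR averaged 0.0333 TPM or less in both groups. Markers of leukocytes summed to 1.46 to 2.80 TPM in H182 and 2.48 to 2.69 TPM in DMSO, those of endothelium to 3.81 to 4.12 TPM in H182 and 4.55 to 5.67 TPM in DMSO, and those of fibroblasts to 7.64 to 8.83 TPM in H182 and 7.45 to 8.37 TPM in DMSO. In each of these 3 lists 1 marker reached a mean of 1 TPM. The leukocyte marker CD14 averaged 1.61 TPM in H182 and 1.84 TPM in DMSO. The endothelial marker KDR averaged 3.84 TPM in H182 and 4.69 TPM in DMSO. The fibroblast marker COL1A1 averaged 7.59 TPM in H182 and 7.24 TPM in DMSO. All other markers of these lists, among them PTPRC, PECAM1 and DCN, averaged 0.440 TPM or less in each group.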

How the data were processed

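Poly-A selected RNA of MDA-MB-231 was sequenced from 3 H182 and 3 DMSO libraries. The authors deposited TPM per gene and library. The tools were STAR (2.5.0) and RSEM (1.2.25), with GRCh38 as the genome, per the submitters' processing notes; annotation, trimming and strand setting are not given in the sources used here. Of 27567 rows, 92 spike-in rows at 0 and 24 second rows of genes shared by X and Y were left out. TPM keeps no read depth, so no counting interval is given.

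Values were analysed as log2(TPM + 1), for genes averaging 1 TPM or more, with limma 3.58.1 in R 4.3.3 (mean-variance trend, two-sided, Benjamini-Hochberg over 12294 genes, threshold 0.05). Fold changes on this scale understate those of low genes. "Fell" and "rose" mean that this test passed. The test was first run on simulated data, drawn for each gene on its own with no shift shared by genes. That run therefore does not cover data in which most genes fall together. The members and lists were chosen with earlier results of these data known. Every member was accounted for; values per library are given for those that passed, and in each other list up to 4 genes with the lowest p were named. SLBP, LIN37 and the ratios were chosen after their values were seen. Coordinates come from GENCODE 29 and promoter windows from RefSeq. Alternatives covered pseudocount, filter, scaling, trend, replicate block and leaving out each library. Same-numbered libraries are not said to be paired. Figures used matplotlib 3.10.9.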

Additional observations from a re-analysis of the deposited data

How the results depend on the processing

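Of 658 recomputed changes of single members, 572 kept their direction and side of the threshold, 63 lost the call, 6 gained one and 17 changed sign. E2F8, E2F2, GINS1, UHRF1, MCM4, FEN1 and MCM3 fell in every setting run. The cause of the changes below was not tested. The median change of the 47 genes was -0.047 with median-of-ratios scaling, -0.0873 with quantile normalization and -0.11 with totals without HSPA1A, HSPA1B and DNAJB1 (-0.19 to -0.13 with 1 library left out), against -0.15 as deposited. Their count of falls was 8 and 13 with the first 2 of these, and 12 to 19 with 1 library left out, lowest without DMSO replicate 2.

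With median-of-ratios scaling, falls in the other lists numbered 6 (replisome), 6 (E2F and pocket proteins) and 3 (nucleotide and chromatin), and rises 1 (replisome) and 2 (nucleotide and chromatin). With quantile normalization the E2F list had 7 falls, the nucleotide list 6, and the replisome list 1 rise. The totals without chaperone genes gave 7 falls in the E2F list and 1 rise in the replisome list, as did (for that rise) a mean of at least 5 TPM. Without a trend the nucleotide list had 7 falls and 0 rises, and without a filter 0 rises. With 1 library left out, falls in the E2F list ranged from 7 to 10, lowest without H182 replicate 1 or DMSO replicate 2 or 3, and rises from 0 to 1 in the replisome, E2F and nucleotide lists. The nucleotide list had 1 rise only without DMSO replicate 1. Of all tested genes, 833 were lower with median-of-ratios scaling (969 higher), 1261 with quantile normalization (833 higher), 1496 with totals without chaperone genes, and 1407 to 2205 with 1 library left out (1486 without H182 replicate 2, 1407 without DMSO replicate 2), against 2304 lower and 651 higher as deposited.

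Signs turned only in genes that had not passed. With median-of-ratios scaling the log2 changes became 0.025 for CDT1, 0.0222 for MCM6, 0.0615 for GINS4, 0.0191 for MCM8, 0.0638 for PCNA, 0.0028 for POLA1, 0.0322 for CHAF1A and 0.0138 for E2F3. With quantile normalization they became 0.0014 for CDT1, 0.0559 for GINS4 and 0.0113 for CHAF1A. With 1 library left out, CDT1 ranged from -0.14 to 0.0164, GINS4 from -0.13 to 0.0063 and E2F1 from -0.0361 to 0.022.

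With the replicate block 20 of the 47 genes fell, 18 of them shared with the fit without it, and the E2F list had 1 rise. Of all 12294 tested genes, 2059 were called lower with the block and 625 higher. Deviations of same-numbered libraries correlated at -0.0130, 0.00245 and -0.0359 across genes, and those of differently numbered libraries at -0.0172 to 0.0281. Such correlations across genes cannot tell whether the numbers paired the libraries, and the labels do not say. Unknown depth limits what can be said of precision for single low genes such as E2F2.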

Other observations

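Ratios between members were computed within each library, where no scaling enters. They were chosen after the values were seen, so the exact p given with them is a description and no test. Of 16 computed, 13 had groups that did not overlap, and no share over other pairs of genes was computed. The ratio of CCNE2 to CCNE1 was 3.33, 3.57 and 3.99 in H182, against 4.95, 4.70 and 4.38 in DMSO. The ratio of ORC1 to ORC6, subunits of 1 complex, was 0.462, 0.509 and 0.417 in H182, against 0.635, 0.611 and 0.571 in DMSO. GINS1 to PCNA was 0.0691, 0.0685 and 0.0766 in H182, against 0.1, 0.0963 and 0.103 in DMSO. FEN1 to PCNA, 2 proteins that bind each other at Okazaki fragments, was 0.540, 0.588 and 0.560 in H182, against 0.668, 0.669 and 0.686 in DMSO. For each of these 4 ratios the groups did not overlap (exact two-sided permutation p = 0.1, the smallest possible). The groups overlapped for GMNN to CDT1 (exact permutation p = 0.4), RFC1 to RFC3 (0.2) and RRM1 to RRM2 (0.3).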
